A study of Rattus norvegicus with 18 samples.

Results

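The genes described here encode enzymes of the citrate cycle, of pyruvate entry into it, of ketone body use and of branched-chain amino acid breakdown. They were listed by function, 42 in all, and 40 of them had a probe set of their own among 14217 genes measured on the arrays. Each gene is represented by the probe set with the highest mean signal over the 18 arrays. Fh and Dlat had no probe set that carried their symbol alone and are not analysed here. A second probe set was present for 14 of the 40 genes.

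The arrays came from a rat model in which Wistar Furth (RT1.Au) hearts were placed as a second heart in the abdomen of ACI (RT1.Aa) rats, all adult males. In the group given cyclosporine plus peptide, recipients received cyclosporine, a calcineurin inhibitor, by mouth (10 mg/kg/day from day 0 through day 2), and 1 mg/kg of the allochimeric peptide [a1h1/u]-RT1.Aa into the portal vein when the graft was placed. The cyclosporine group received the same oral course, described as sub-therapeutic, without the peptide, and the untreated group received a graft and no drug. Heart allografts and T cells were taken on days 1, 3 and 7, with 1 array for each tissue, treatment and day, so that no combination had a second array. No injection without peptide is described, and effects of the portal vein injection itself cannot be told apart from those of the peptide. Every group carried a graft, and no ungrafted heart was analysed here. The T cell samples also carry the strain label Wistar Furth, and their organ of origin is not given in the sources used here.

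In heart muscle, mitochondria draw acetyl-CoA from pyruvate, ketone bodies, fatty acids and amino acids and oxidise it in the citrate cycle. The pyruvate dehydrogenase complex makes acetyl-CoA from pyruvate, and its kinases switch it off while its phosphatases switch it on. Leucine, isoleucine and valine are first transaminated and then committed to oxidation by the branched-chain keto acid dehydrogenase complex, which has a kinase of its own. Separate branches then carry the products to acetyl-CoA, acetoacetate or, through propionyl-CoA, to succinyl-CoA of the citrate cycle.

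The tissue labels were checked against defining markers. Over 11 cardiac muscle genes the summed signal was 468 to 678 in the T cell arrays and 111565 to 157139 in the heart arrays. T cell markers, 10 genes, summed to 54663 to 78550 in T cells and to 1394 to 24867 in hearts, and no marker of either list was listed at 0 on any array. The T cell samples also held B cell transcripts (4 genes, with a summed signal of 7000 to 22956) and macrophage transcripts (7 genes, 25674 to 41139). The untreated day 1 T cell array stood apart, with a summed signal of 37776 for 6 neutrophil genes against 1150 to 3395 on the other T cell arrays. Median signal was 195 to 210 on T cell arrays and 210 to 231 on heart arrays.

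Between day 1 and day 7 nearly all of these genes fell in the grafts of all 3 treatment groups. Signal was lower on day 7 in 36 of 40 genes and higher in 1, Bcat1, by limma with an adjusted p below 0.05, where 33.8% of all 19737 probe sets tested were lower and 30.9% higher. The median difference was -0.69 on the log2 scale, beside -0.02 over all probe sets tested. In 38 genes every day 7 array lay below every day 1 array (36.8% of all probe sets tested), and in 1 gene every day 7 array lay above (33.5%). Differences are means of 3 same-treatment differences of log2(signal + 16), with the SE of the fit. Heart tissue is a mixture of cells, in which fewer cells of a type and less RNA per cell cannot be told apart. Over the same interval the summed cardiac muscle signal was 111565 to 131830 on day 7 and 151943 to 157139 on day 1, 7 of 11 cardiac muscle genes were lower, and their median difference was -0.36. T cell markers moved the other way, with sums of 20276 to 24867 on day 7 and 1394 to 2436 on day 1 and 9 of 9 tested genes higher, as did macrophage markers (51530 to 55005 on day 7, 11466 to 11826 on day 1, 7 of 7 higher). Endothelial markers were lower in 5 of 5 genes, with sums of 4089 to 5197 on day 7 and 9185 to 9952 on day 1. The actin 3′ to 5′ signal ratio, a measure of RNA integrity, was 1.41 to 1.43 on day 7 and 1.84 to 2.44 on day 1. The part of these cell markers and of RNA integrity in the fall of the metabolic genes was not tested.

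**Figure D1:**
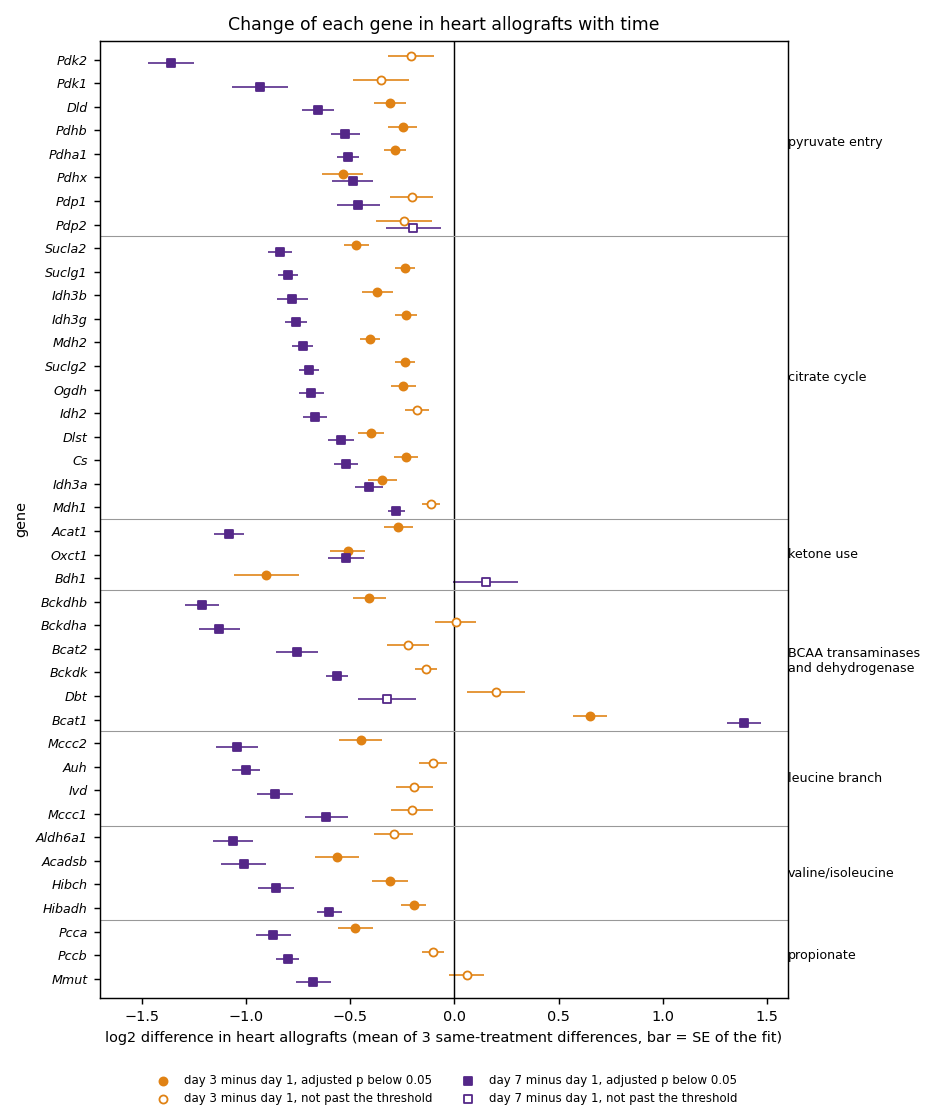
Log2 difference of each of the 40 genes in heart allografts on day 7 (squares) and day 3 (circles) relative to day 1, grouped by role, with the SE of the fit as bars and filled symbols for an adjusted p below 0.05. The squares lie left of 0 for 38 genes, reach -1.36 for Pdk2 and lie at 1.39 for Bcat1, while most circles lie nearer to 0.

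Of the genes that control or carry out pyruvate entry, 7 of 8 fell by day 7, with a median of -0.52. The largest fall was that of Pdk2, a kinase that switches off pyruvate dehydrogenase. On days 1, 3 and 7 its signal was 4652, 4339 and 1847 with cyclosporine plus peptide, 4602, 4819 and 1904 with cyclosporine, and 4886, 3225 and 1736 without treatment. The day 7 arrays lay far below all 6 earlier ones in every group, and Pdk2 fell by 1.36 ± 0.11 on the log2 scale (adjusted p = 2.39e-05). Pdk1, another kinase of the complex, fell by 0.93 ± 0.13. The catalytic subunit genes fell less, Pdha1 by 0.51 ± 0.05 and Pdhb by 0.52 ± 0.07. Pdha1 read 11875, 9984 and 8050 with cyclosporine plus peptide, 11647, 10095 and 8705 with cyclosporine, and 11658, 8792 and 7952 without treatment, a stepwise decline in each group. Pdhx, which anchors the lipoamide dehydrogenase subunit, fell by 0.49 ± 0.10, and Dld, that subunit itself, which the oxoglutarate and branched-chain complexes share, fell by 0.65 ± 0.08. Of the activating phosphatases, Pdp1 fell by 0.46 ± 0.10 and Pdp2 was at -0.20 ± 0.13, which did not pass the test. The Pdp1 call was lost without the cyclosporine plus peptide arrays (-0.38, adjusted p = 0.0639). The second probe set of Pdp2 ran the other way, at 0.33 (adjusted p = 0.0282).

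All 12 measured citrate cycle genes were lower on day 7, by a median of -0.69, with differences between -0.84 and -0.28. Of the succinyl-CoA ligase genes, Sucla2, the subunit of the ATP-forming enzyme, fell by 0.84 ± 0.06 and Suclg1, the subunit common to both forms, by 0.80 ± 0.05, the largest falls of the group. Suclg2, of the GTP-forming enzyme, fell by 0.70 ± 0.05. Sucla2 signal on days 1, 3 and 7 was 7166, 5241 and 3926 with cyclosporine plus peptide, 7000, 5516 and 4055 with cyclosporine, and 6906, 4494 and 3794 without treatment. Each group thus declined in both intervals. The subunits of NAD-dependent isocitrate dehydrogenase fell unequally, Idh3b by 0.78 ± 0.07, Idh3g by 0.76 ± 0.05 and Idh3a, the catalytic subunit, by 0.41 ± 0.07. Idh2, the NADP-dependent mitochondrial enzyme, fell by 0.67 ± 0.06, to 11588, 11990 and 10445 on day 7 with cyclosporine plus peptide, cyclosporine and no treatment, against 18120, 17653 and 18326 on day 1. Mdh2, the mitochondrial malate dehydrogenase, fell by 0.73 ± 0.05, and Mdh1, its cytosolic counterpart, had the smallest difference of the group at -0.28 ± 0.04. Ogdh and Dlst, subunits of the oxoglutarate dehydrogenase complex, fell by 0.69 ± 0.06 and 0.55 ± 0.06, and Cs, citrate synthase, by 0.52 ± 0.06.

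The ketone genes did not share 1 course. Acat1, the mitochondrial acetoacetyl-CoA thiolase, which also acts in isoleucine breakdown, fell by 1.08 ± 0.07 (adjusted p = 9.87e-06). Its signal on days 1, 3 and 7 was 8624, 7459 and 4372 with cyclosporine plus peptide, 8914, 8095 and 4536 with cyclosporine, and 8860, 6444 and 3590 without treatment, so that most of the decline fell in the later interval. Oxct1, which activates acetoacetate for oxidation, had its decline in the earlier one. It read 12748, 9570 and 9077 with cyclosporine plus peptide, 12344, 9907 and 9563 with cyclosporine, and 12455, 7099 and 7659 without treatment. Its day 3 minus day 1 difference was -0.51 ± 0.09 and its day 7 minus day 3 difference -0.01 ± 0.09. Bdh1, which interconverts hydroxybutyrate and acetoacetate, dipped on day 3 and was back on day 7 in each group. Bdh1 signal was 651, 288 and 638 with cyclosporine plus peptide, 766, 510 and 765 with cyclosporine, and 628, 304 and 882 without treatment. It fell by 0.90 ± 0.16 between days 1 and 3 (adjusted p = 0.00689), rose by 1.05 ± 0.16 between days 3 and 7 (adjusted p = 0.000768), and was at 0.15 ± 0.16 over the whole interval. Without the cyclosporine plus peptide arrays the day 3 fall of Bdh1 was -0.79 and was not called.

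Of the branched-chain transaminase and dehydrogenase genes, 4 of 6 fell and 1 rose. Bckdhb and Bckdha, which encode the paired subunits that decarboxylate branched-chain keto acids, fell by 1.21 ± 0.08 (adjusted p = 1e-05) and 1.13 ± 0.10 (adjusted p = 3.29e-05). Bckdhb signal on days 1, 3 and 7 was 4080, 3088 and 1842 with cyclosporine plus peptide, 3987, 3407 and 1927 with cyclosporine, and 4094, 2698 and 1486 without treatment. Bckdha read 2264, 2433 and 1193 with cyclosporine plus peptide, 2284, 2575 and 1100 with cyclosporine, and 2485, 2075 and 914 without treatment. Both subunit genes ended lowest in the untreated graft. By day 3 Bckdha had declined in the untreated graft (-0.26) and not with cyclosporine (0.17) or cyclosporine plus peptide (0.10). The mean of these was 0.01 ± 0.10. Dbt, the transacylase core of the complex, was at -0.32 ± 0.14 on day 7, which did not pass the test, whereas its second probe set was at -0.72 and passed (adjusted p = 0.00183). Bckdk, the kinase that switches the complex off, fell by 0.56 ± 0.05.

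The transaminases moved apart. Bcat2, the mitochondrial branched-chain transaminase, fell by 0.76 ± 0.10, while Bcat1, the cytosolic one, rose by 1.39 ± 0.08 (adjusted p = 6.01e-06). Bcat1 signal on days 1, 3 and 7 was 1351, 1982 and 3487 with cyclosporine plus peptide, 1448, 2034 and 3711 with cyclosporine, and 1510, 2867 and 4203 without treatment. No array of an earlier day reached an array of a later one, and the untreated graft was the highest on each day. The second Bcat1 probe set rose by 1.62 ± 0.11. Bcat2 read 2284, 2040 and 1533 with cyclosporine plus peptide, 2387, 2392 and 1413 with cyclosporine, and 2550, 1782 and 1311 without treatment.

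All 11 genes of the leucine, valine, isoleucine and propionate branches fell by day 7. In the leucine branch, Mccc2 fell by 1.05 ± 0.10 and Mccc1 by 0.61 ± 0.10, which encode the subunits of methylcrotonyl-CoA carboxylase. Auh, the next hydratase, fell by 1.00 ± 0.07 and Ivd, isovaleryl-CoA dehydrogenase, by 0.86 ± 0.09. Aldh6a1, the methylmalonate semialdehyde dehydrogenase of valine breakdown, fell by 1.06 ± 0.09. Its signal was 4779, 4366 and 2560 with cyclosporine plus peptide, 5166, 4612 and 2691 with cyclosporine, and 5160, 3447 and 2005 without treatment. Acadsb, the dehydrogenase of the isoleucine branch, fell by 1.01 ± 0.11, with 392, 233 and 196 units with cyclosporine plus peptide, 429, 348 and 223 with cyclosporine, and 498, 301 and 208 without treatment. Hibch and Hibadh, successive enzymes of valine breakdown, fell by 0.86 ± 0.09 and 0.60 ± 0.06. The propionyl-CoA carboxylase subunits Pcca and Pccb fell by 0.87 ± 0.08 and 0.80 ± 0.05, and Mmut, the methylmalonyl-CoA mutase that follows them, by 0.68 ± 0.08. The median was -0.93 for the 4 leucine genes, -0.93 for the 4 valine and isoleucine genes and -0.80 for the 3 propionate genes.

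**Figure D2:**
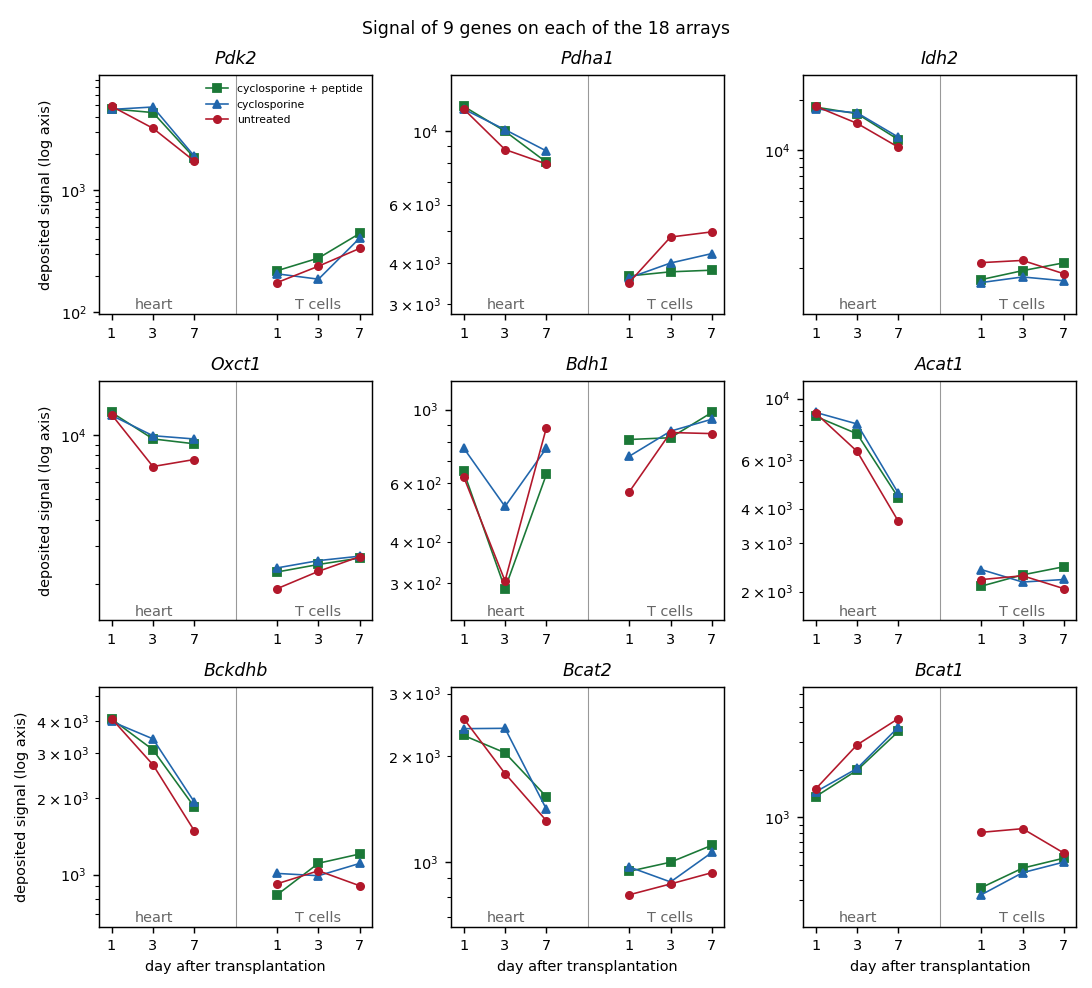
Deposited signal (log axis) of 9 genes on each array against the day after transplantation, hearts left and T cells right within each panel, with green squares for cyclosporine plus peptide, blue triangles for cyclosporine and red circles for no treatment. Pdk2, Acat1 and Bckdhb drop on day 7 in hearts and not in T cells, Oxct1 drops by day 3, Bdh1 dips on day 3, and Bcat1 climbs to between 3487 and 4203 in the day 7 hearts.

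The 250 bases upstream of the start were read from the RefSeq promoter table (build GRCr8) for the gene with the largest fall, a subunit gene of the branched-chain dehydrogenase and the only gene that rose. Capitals mark matches to the motifs searched.
Pdk2 (chr10:80483913-80484162, minus strand): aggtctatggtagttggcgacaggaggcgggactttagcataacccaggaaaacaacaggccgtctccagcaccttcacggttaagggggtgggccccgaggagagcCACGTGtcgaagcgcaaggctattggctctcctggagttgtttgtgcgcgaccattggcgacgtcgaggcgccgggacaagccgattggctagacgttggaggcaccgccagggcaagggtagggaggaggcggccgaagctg
Bckdhb (chr8:93725027-93725276, plus strand): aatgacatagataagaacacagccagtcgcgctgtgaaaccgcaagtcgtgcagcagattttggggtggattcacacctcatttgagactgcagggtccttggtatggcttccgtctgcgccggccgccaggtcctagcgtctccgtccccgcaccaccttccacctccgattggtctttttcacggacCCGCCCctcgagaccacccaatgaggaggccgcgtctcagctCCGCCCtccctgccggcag
Bcat1, upstream start (chr4:179777289-179777538, minus strand): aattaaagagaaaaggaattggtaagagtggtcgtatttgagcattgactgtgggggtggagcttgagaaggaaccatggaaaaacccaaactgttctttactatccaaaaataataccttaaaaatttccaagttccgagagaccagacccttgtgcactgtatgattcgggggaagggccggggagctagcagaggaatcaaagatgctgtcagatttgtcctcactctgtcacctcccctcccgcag
Bcat1, downstream start (chr4:179744209-179744458, minus strand): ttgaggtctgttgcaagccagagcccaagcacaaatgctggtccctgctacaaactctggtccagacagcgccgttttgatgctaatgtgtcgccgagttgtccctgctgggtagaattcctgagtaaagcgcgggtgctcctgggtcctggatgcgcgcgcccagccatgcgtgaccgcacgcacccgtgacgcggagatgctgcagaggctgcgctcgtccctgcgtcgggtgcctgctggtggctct

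Promoters were matched for 35 of the 40 genes, 36 promoters in all, and 5 motifs were searched on both strands. The GC box GGGCGG, read by Sp factors, was in 23 of the 36 promoters (63.9%) and in 30.5% of the 33469 promoters of the table. Bckdhb holds it in the sequence above as its complement CCGCCC, at 2 places. The E-box CACGTG was in 3 promoters (8.33%, against 5.59% of all), those of Ogdh, Pdhb and Pdk2. The ETS-type motif CCGGAAG was in 5 (13.9%, against 7.27%), those of Dlst, Idh3b, Idh3g, Mdh2 and Mmut, and TGACGTCA, the cyclic AMP response element, in those of Mdh2 and Ogdh (5.56%, against 1.59%). The estrogen-related receptor motif TNAAGGTCA was in none of the 36 windows and in 1.04% of all. Neither Bcat1 window held any of these motifs. A match describes the letters of these windows and nothing more.

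The interval between days 1 and 3 was compared with that between days 3 and 7. Day 3 signal was already lower than on day 1 in 23 of 40 genes and higher in 1 (12.9% of all probe sets tested lower, 14.6% higher), with a median of -0.24. Day 3 arrays lay wholly below day 1 arrays in 29 genes (21.6% of all) and wholly above in 1 (22.4%). Beside Bdh1, the largest falls by day 3 that passed were those of Acadsb (-0.57 ± 0.11), Pdhx (-0.54 ± 0.10), Oxct1 (-0.51 ± 0.09) and Pcca (-0.48 ± 0.08), and the gene that rose was Bcat1 (0.65 ± 0.08). By role, 10 of 12 citrate cycle genes and all 3 ketone genes were lower by day 3. So were 1 of 6 branched-chain transaminase and dehydrogenase genes, 1 of 4 leucine genes and 1 of 3 propionate genes. In the valine and isoleucine branch Hibadh, Hibch and Acadsb were lower, and Aldh6a1 did not pass. In pyruvate entry Pdha1, Pdhb, Pdhx and Dld were lower, and Pdp1, Pdp2, Pdk1 and Pdk2 did not pass. Differences between roles were not tested. The count of lower genes was 15 without the untreated day 3 heart array, 9 without the cyclosporine arrays and 6 without the cyclosporine plus peptide arrays. These fits hold fewer arrays, and the shares of all probe sets they called are not given here. Cardiac muscle genes had a median of -0.04 over this interval, with 1 of 11 higher and 1 lower.

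Between days 3 and 7 the count was 32 lower and 2 higher (29.4% of all probe sets tested lower, 26.9% higher), with a median of -0.43. Arrays did not overlap in 30 genes that were lower (31% of all) and 2 that were higher (29.6%). The largest falls were those of Pdk2 (-1.15 ± 0.11), Bckdha (-1.13 ± 0.10), Auh (-0.90 ± 0.07), Acat1 (-0.81 ± 0.07) and Bckdhb (-0.80 ± 0.08). Bdh1 (1.05 ± 0.16) and Bcat1 (0.74 ± 0.08) rose. All 11 genes of the leucine, valine, isoleucine and propionate branches fell in this interval, as did 10 of 12 citrate cycle genes. Pdhx (0.05 ± 0.10), Oxct1 (-0.01 ± 0.09), Idh3a (-0.06 ± 0.07) and Dlst (-0.14 ± 0.06) did not pass the test here, although each had fallen by day 3.

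T cells were then set against hearts over all 18 arrays, as a mean of 9 differences at the same treatment and day. Signal was lower in T cells in 38 of 40 genes and higher in 1 (35.5% of all 22327 probe sets tested lower, 47.9% higher). The 38 include Acadsb, which passed the filter through the hearts alone and read 55.9 to 105 in T cells. The median was -1.20, beside 0.15 over all probe sets tested. In 33 genes every T cell array lay below every heart array (23.5% of all), and in 0 genes above (29.7%). Idh2 was among the genes furthest apart, with a lowest, median and highest signal of 1633, 1841 and 2213 in T cells and 10445, 16542 and 18326 in hearts (-2.97 ± 0.10). Pdk2 spanned 175 to 443 in T cells and 1736 to 4886 in hearts (-3.56 ± 0.27). Aldh6a1 (-2.57 ± 0.14), Bcat1 (-2.11 ± 0.16) and Oxct1 (-2.02 ± 0.10) followed. The alternative succinyl-CoA ligase subunits were at -1.46 ± 0.11 for Sucla2, of the ATP-forming enzyme, and -0.44 ± 0.09 for Suclg2, of the GTP-forming one.

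The exceptions were Bdh1 and Pdp2. Bdh1 was higher in T cells by 0.51 ± 0.16 (adjusted p = 0.00896), with 564 to 981 in T cells and 288 to 882 in hearts, ranges that overlap. The difference was 0.15 and not called without the day 3 arrays, and 0.04 with its second probe set. Pdp2 was at 0.11 ± 0.08, which did not pass. Bckdha was at -0.70 ± 0.17, and its call was lost without the day 1 arrays (-0.46) and without the day 3 arrays (-0.50). Its second probe set was higher in T cells, at 1.37. Dbt was at -0.43 ± 0.11 and, with its second probe set, at 0.01.

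**Figure D3:**
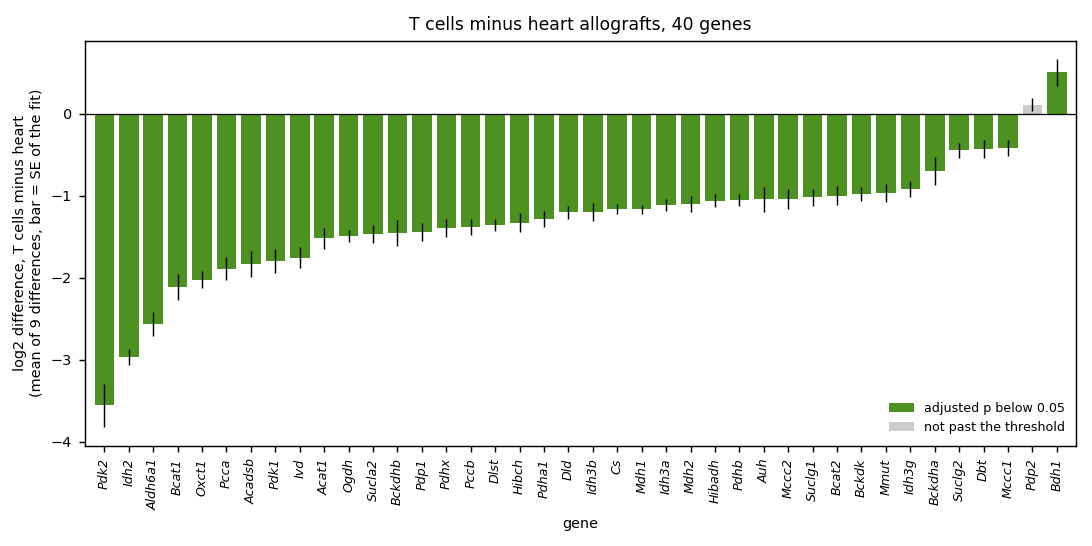
Log2 difference of each gene, T cells minus heart allografts, as the mean of 9 differences with the SE of the fit. All bars except those of Pdp2 and Bdh1 point down, from -3.56 for Pdk2 to -0.42 for Mccc1.

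**Figure D4:**
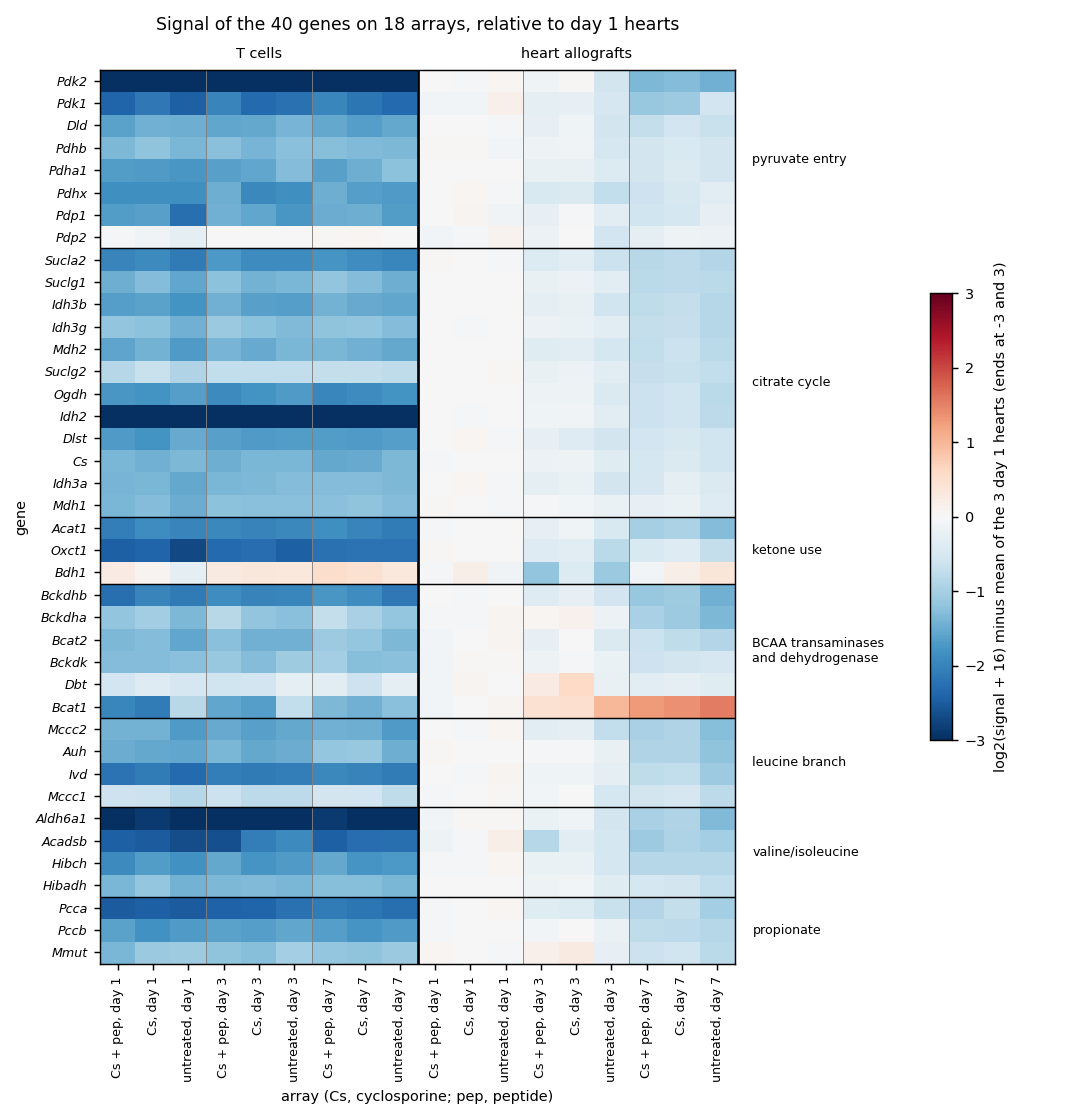
Log2 signal of the 40 genes on the 18 arrays, T cells left and hearts right, minus the mean of the 3 day 1 hearts of the same gene, with colours ending at -3 and 3. The day 7 heart columns turn blue for most genes of every role, Bcat1 turns red, and the T cell columns are blue on all days for most genes.

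Within the T cell arrays few of these genes passed the test over time. On day 7, 1 of 39 genes tested was higher than on day 1 and 0 were lower (0.437% of 19464 probe sets tested higher, 0.139% lower), with a median of 0.12, and 11 had an unadjusted p below 0.05. Acadsb was too dim to be tested in T cells. The gene that passed was Pdk2, at 443, 407 and 334 on day 7 with cyclosporine plus peptide, cyclosporine and no treatment, against 219, 207 and 175 on day 1. It rose by 0.92 ± 0.14 (adjusted p = 0.0411), and the call was lost without the arrays of any 1 treatment (0.90 to 0.95) and without the untreated day 1 T cell array (0.88). Between days 3 and 7 and between days 1 and 3, 0 of 39 genes passed limma's threshold (0% of all probe sets tested in each), with 2 and 4 genes at an unadjusted p below 0.05.

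Whether the time course differed by tissue was tested as an interaction. The day 7 minus day 1 difference was lower in hearts than in T cells for 36 of 40 genes and higher for 1, Bcat1 (23.2% of all 22327 probe sets tested lower, 23.5% higher). The median of this difference of differences was -0.79. Pdk2, which fell in hearts and rose in T cells, differed most, by -2.28 ± 0.18 (adjusted p = 1.79e-06), followed by Bckdhb (-1.42 ± 0.15), Bckdha (-1.37 ± 0.15) and Auh (-1.29 ± 0.11). The count includes Acadsb, which passed the filter through the hearts alone and read 55.9 to 105 in T cells, so that its difference of differences has no measured T cell course behind it. With its second probe set, Bckdha was at 0.53 and did not pass. Bcat1 stood at 1.11 ± 0.23 (adjusted p = 0.00192). For days 3 to 7 the counts were 27 lower and 2 higher, Bdh1 (0.93 ± 0.21) and Bcat1 (0.77 ± 0.23), beside 16.1% and 15.8% of all. Without the cyclosporine arrays 13 were lower. For days 1 to 3 the counts were 16 lower and 0 higher, beside 4.2% and 4.61%, led by Bdh1 (-1.19 ± 0.21). The 16 include Acadsb (-0.89 ± 0.22), which again has no measured T cell course behind it. The count for days 1 to 3 did not hold without the untreated day 3 heart array (5) or without the arrays of a whole treatment (0 to 4). Shares of all probe sets called in fits that leave out arrays are not given here. The median difference of T cells minus hearts over the 40 genes was -1.59, -1.21 and -0.89 on days 1, 3 and 7.

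The treated grafts were each compared with the untreated ones over the 3 days. No gene of the 40 passed with cyclosporine plus peptide or with cyclosporine (0% of all probe sets tested by limma in either direction), and 7 and 17 had an unadjusted p below 0.05. Differences were small and mostly positive. The median was 0.11 with cyclosporine plus peptide, positive in 34 of 40 genes, and 0.15 with cyclosporine, positive in 38 of 40. Over all probe sets tested the medians were -0.016 and 0.003. Both comparisons share the untreated arrays. Bcat1 went the other way with cyclosporine plus peptide, at -0.32 ± 0.08 (adjusted p = 0.203), and on each day (-0.16, -0.53 and -0.27 on days 1, 3 and 7). Acadsb was at -0.25 ± 0.11, Mmut at 0.22 ± 0.08 and Mdh1 at 0.12 ± 0.04 in that comparison. With cyclosporine alone the signal of several genes was above the untreated array on each day. Among them were Pdhb (0.20 ± 0.07), Idh3a (0.19 ± 0.07) and Dlst (0.13 ± 0.06). Dbt (0.33 ± 0.14) was another, and its difference came mostly from day 3 (0.08, 0.83 and 0.08 on days 1, 3 and 7).

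Single-day differences, which have no test with 1 array per combination, were not alike on the 3 days. On day 1 the medians were -0.01 with cyclosporine plus peptide and -0.01 with cyclosporine, and the signs were mixed. On day 3 they were 0.21 and 0.29, with 37 and 39 of 40 genes above the untreated array (45.6% and 49.8% of all). On day 7 they were 0.07 and 0.13, with 28 and 34 above (46.7% and 50.2% of all). Both treated grafts lay above the untreated one in 11, 37 and 28 genes on days 1, 3 and 7, beside 34.5%, 35.5% and 37.7% of all probe sets tested. They lay below it in 16, 1 and 6 genes, beside 36.6%, 40% and 40.8%. The gene below on day 3 was Bcat1. Of the 3 day 3 grafts, the untreated one read lowest for Oxct1 (9570 with cyclosporine plus peptide, 9907 with cyclosporine and 7099 untreated), for Pdk2 (4339, 4819 and 3225 in the same order) and for Idh3b (7711, 8046 and 6193).

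Cardiac muscle genes were read on the same days. On day 1 they summed to 157139 with cyclosporine plus peptide, 152872 with cyclosporine and 151943 untreated. Their medians against the untreated graft were then 0.05 and -0.02, with 10 and 4 of 11 genes higher. Their summed signal on day 3 was 156788 with cyclosporine plus peptide, 156485 with cyclosporine and 133814 untreated, and all 11 were higher in both treated grafts, by medians of 0.20 and 0.20. On day 7 the sums were 127531, 131830 and 111565 in the same order, with medians of 0.18 and 0.17. Neutrophil markers, 6 genes, summed to 6236, 5029 and 11733 on day 1, when the medians of the metabolic genes were near 0. They summed to 6041, 5725 and 12209 on day 3, and to 2435, 1529 and 1838 on day 7. The part of these in the day 3 difference was not tested.

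**Figure D5:**
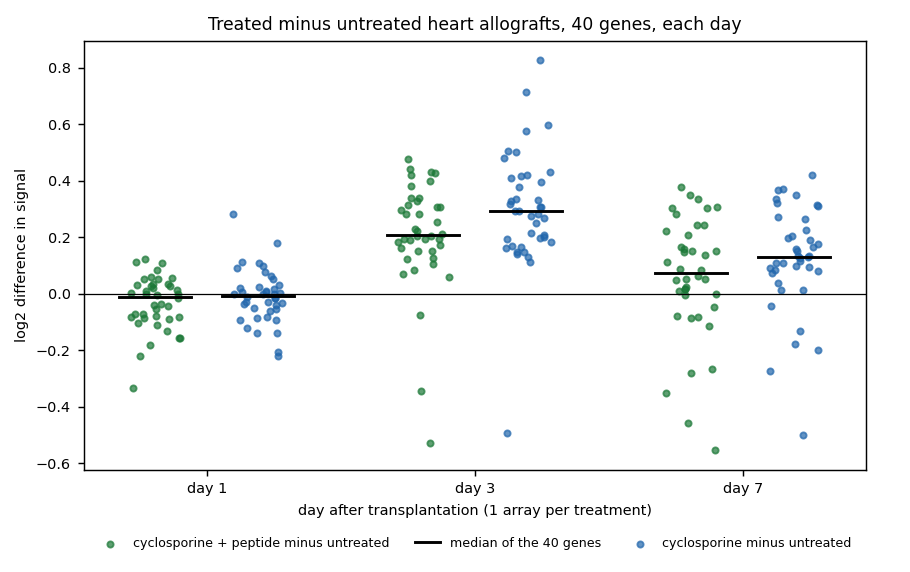
Log2 difference in signal between each treated heart allograft and the untreated one of the same day for the 40 genes, with cyclosporine plus peptide in green left of cyclosporine in blue and the median as a black line. The points centre on 0 on day 1, lie mostly above it on day 3 (medians 0.21 and 0.29) and nearer to it on day 7 (0.07 and 0.13).

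Adding the peptide to cyclosporine gave no call in hearts (0% of all probe sets tested by limma), a median of -0.04 and 2 genes at an unadjusted p below 0.05. Differences were negative for 35 of 40 genes, in a comparison whose median over all probe sets tested was also below 0 (-0.02) and in which 54.3%, 57.4% and 55.8% of all were lower on days 1, 3 and 7. Bdh1 was at -0.43 ± 0.16 (adjusted p = 0.953), with 651, 288 and 638 units with the peptide and 766, 510 and 765 without it on days 1, 3 and 7, lower on each day. Other genes lower on each day included Acadsb (-0.28 ± 0.11), Dbt (-0.20 ± 0.14) and Aldh6a1 (-0.09 ± 0.09), which did not pass.

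In T cells no gene passed in any treatment comparison either (0% of all probe sets tested in each). Unadjusted p values were below 0.05 for 9 genes with cyclosporine plus peptide against no treatment, 4 with cyclosporine against no treatment and 0 with the peptide added to cyclosporine. Bcat1 had the widest difference. Its signal on days 1, 3 and 7 was 360, 478 and 553 with cyclosporine plus peptide, 324, 447 and 522 with cyclosporine, and 804, 848 and 594 without treatment. The cyclosporine minus untreated difference was -0.78 ± 0.20 (adjusted p = 0.343), at -1.27, -0.90 and -0.18 on the 3 days. Day 1 differences of both treated groups are taken from the untreated day 1 T cell array, which stood apart by its neutrophil genes. Among the genes with the same sign on each day with cyclosporine, Idh2 (-0.28 ± 0.10) and Ogdh (-0.11 ± 0.06) were lower and Pdp1 (0.35 ± 0.11) higher. With the peptide as well, genes higher on each day included Pdp1 (0.36 ± 0.11), Bckdha (0.34 ± 0.10), Pdk2 (0.30 ± 0.14) and Bcat2 (0.22 ± 0.08). Without the day 1 arrays Bckdha was called higher and Pdha1 lower with cyclosporine plus peptide than without treatment. That fit holds fewer arrays, and the share of all probe sets it called is not given here. The treatment differences in hearts were not shown to differ from those in T cells: limma called 0 of 40 genes in each of the 3 interaction tests (at most 0.00448% of all probe sets tested). With the peptide added to cyclosporine, for instance, the difference of differences for Bdh1 was -0.48 ± 0.21 (adjusted p = 0.909).

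Other genes of the same pathways, taken from lists chosen by function, were read beside the 40. Their counts stand beside the 33.8% of all probe sets tested that were lower and the 30.9% that were higher on day 7 than on day 1, and with lists this short no count was tested against them. In hearts between days 1 and 7, 10 of 12 further citrate cycle and related genes were lower and 2 higher. Me3 (-1.32 ± 0.10), a mitochondrial malic enzyme, Sdha (-0.87 ± 0.06), the flavoprotein of succinate dehydrogenase, and Me1 (-0.86 ± 0.06), the cytosolic malic enzyme, fell most. Me2, another mitochondrial malic enzyme, rose by 1.25 ± 0.17, with 798, 881 and 1249 on day 7 with cyclosporine plus peptide, cyclosporine and no treatment, against 333, 509 and 357 on day 1. Acly, which cleaves citrate in the cytosol, rose by 0.30 ± 0.07. The isoenzymes of malic enzyme thus moved apart, as did the branched-chain transaminases.

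Among 8 further genes of pyruvate entry, 4 were lower and 1 higher. Pdk4, a kinase of the complex induced by fatty acids and fasting, fell by 2.87 ± 0.16, to 1169, 1066 and 2108 on day 7 with cyclosporine plus peptide, cyclosporine and no treatment, against 9141, 9961 and 11586 on day 1. Pdk3, the remaining kinase, rose by 0.77 ± 0.06. Of the 4 kinases of the complex, Pdk4, Pdk2 and Pdk1 thus fell and Pdk3 rose. Pdpr, the regulatory subunit of the phosphatase, fell by 0.53 ± 0.10 and Mpc2, of the mitochondrial pyruvate carrier, by 0.44 ± 0.06.

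In branched-chain and propionate breakdown 10 of 13 further genes were lower and 2 higher. Ehhadh (-1.72 ± 0.13), a peroxisomal enzyme of fatty acid oxidation, Mmaa (-0.98 ± 0.11), which delivers the cobalamin cofactor of Mmut, Acad8 (-0.90 ± 0.07), the isobutyryl-CoA dehydrogenase of valine breakdown, and Echs1 (-0.83 ± 0.08), a short-chain hydratase, fell most. Slc7a8, an amino acid transporter of the cell surface, rose by 0.82 ± 0.10 and Slc25a44, the mitochondrial carrier of branched-chain amino acids, by 0.28 ± 0.07. Ppm1k, the phosphatase that activates the branched-chain dehydrogenase, fell by 0.17 ± 0.06. Of 6 further ketone genes 1 was lower, Bdh2 (-1.44 ± 0.11), and 2 were higher, Slc16a3 (0.74 ± 0.16), a monocarboxylate transporter, and Acat2 (0.62 ± 0.07), the cytosolic thiolase. Carriers and aminotransferases gave 7 of 10 lower, led by Gpt (-1.98 ± 0.10), alanine aminotransferase, and 2 higher, Slc25a10 (1.28 ± 0.16), the dicarboxylate carrier, and Slc25a1 (0.80 ± 0.07), the citrate carrier. All 3 genes of lipoate and coenzyme A synthesis were lower, with Lias, which makes the lipoyl group of the dehydrogenase complexes, at -0.85 ± 0.09.

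The same lists were read in T cells against hearts, where 35.5% of all probe sets tested were lower and 47.9% higher. Me1 (-3.59 ± 0.19) and Me3 (-3.49 ± 0.18) were lower in T cells. Pdk4 read 23.3 to 78.3 in T cells, too dim to be tested there, and 1066 to 11617 in hearts. The genes higher in T cells included Acat2 (2.01 ± 0.09) and Aacs (1.70 ± 0.11), which form acetoacetyl-CoA in the cytosol, Acly (0.79 ± 0.06) and Mmaa (0.75 ± 0.13). By list, 10 of 12 citrate cycle genes were lower in T cells and 1 higher, and 7 of 8 pyruvate genes lower and 1 higher. The 7 include Pdk4, which passed the filter through the hearts alone. Further, 8 of 13 branched-chain genes were lower and 3 higher, 7 of 10 carriers lower and 3 higher, and 3 of 6 ketone genes lower and 2 higher.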

How the data were processed

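RNA was hybridised to 18 single-colour arrays with 31099 probe sets. The authors deposited 1 intensity per probe set and array on a linear scale, with software and normalization not given in the sources used here; 771 values were below 0. Of 31042 probe sets other than controls, 20826 carried 1 gene symbol, 436 several and 9780 none in the platform annotation, and all 40 gene symbols were the same in RefSeq. Values below 0 were set to 0, and log2 values of the deposited intensity plus 16 were fitted with limma 3.58.1 in R 4.3.3 (lmFit, eBayes with trend), with p-values adjusted by Benjamini-Hochberg over all probe sets tested and a threshold of 0.05. Probe sets had to exceed the array's 40th percentile on at least 3 arrays. Within a tissue, 9 arrays were fitted by treatment and day without an interaction; tissue differences and interactions used all 18. With 1 array per combination, the spread comes from departures from this additive model, the number of arrays limits precision, and p-values measure only the spread between these samples. The fit was tested on simulated data.

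The genes and lists were chosen with earlier results of these data known. Named in full were, per comparison, the 5 largest differences in each direction that passed with 1 sign throughout, and genes going against their role; where none passed, the 4 genes whose smallest single-day difference was largest; of other lists, up to 4 genes by size. A few more (Mdh1, Idh3b on day 3, Ppm1k, Lias) were named after their values were seen. Alternatives covered the pseudocount (1 and 64), the normalization, the filter, the variance trend, the probe set and leaving out a treatment or day. Leaving out the untreated day 1 T cell array or the untreated day 3 heart array was added after seeing the data.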

Additional observations from a re-analysis of the deposited data

Results flagged for a closer look

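The change between days differed between hearts and T cells by the interaction test of limma. Between days 1 and 7 it differed for 37 of 40 genes (23.2% of all probe sets tested lower, 23.5% higher). Between days 3 and 7 it differed for 29 (16.1% lower, 15.8% higher) and between days 1 and 3 for 16 (4.2% lower, 4.61% higher). The count for days 1 to 3 did not hold without the untreated day 3 heart array or without the arrays of a whole treatment. For days 1 to 7 the difference, heart minus T cells, was -2.28 for Pdk2, -1.42 for Bckdhb, -1.37 for Bckdha and -1.29 for Auh, and 1.11 for Bcat1. The value for Acadsb, -1.21, rests on hearts, since its T cell signal was too dim to be tested. The 16 genes of days 1 to 3 include Acadsb too. Cardiac muscle, T cell and macrophage markers of the hearts changed over the same days, and their part in these values was not tested.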

How the results depend on the processing

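The fall between days 1 and 7 in hearts gave 35 to 38 lower genes under every alternative run, as did its interaction with tissue and the difference between T cells and hearts. The day 3 to 7 fall in hearts gave 24 to 34. With each gene's second probe set, 2 genes were higher in hearts on day 7 than on day 1, 0 in T cells, 2 in T cells than in hearts, and 1 in the day 3 to 7 interaction. The second probe set also turned Bckdha in T cells against hearts to 1.37, Dbt to 0.0108, and the day 1 to 7 interaction of Bckdha to 0.53. Median centring gave 2 genes higher in T cells than in hearts, and the median over all probe sets tested was then 0.25, against 0.15 as deposited. Without the untreated day 3 heart array, 15 genes were lower and 2 higher on day 3 than on day 1 in hearts, and 5 were lower in that interaction, for which the fit without a variance trend gave 10. The Pdk2 call in T cells (day 7 against day 1) went to 0 with the 60th percentile filter, without the trend, with day as the only term and without the untreated day 1 T cell array. Leaving out 1 treatment gave 6 to 19 lower and 1 to 2 higher genes for day 3 against day 1 in hearts, 0 to 0 for the Pdk2 call, 13 to 30 lower and 1 to 2 higher for the day 3 to 7 interaction and 0 to 4 lower for the day 1 to 3 interaction. Leaving out 1 day gave 0 to 1 lower and 0 to 1 higher for cyclosporine plus peptide against untreated T cells and 0 to 2 higher for T cells against hearts. Leave-outs hold fewer samples, the shares of all probe sets they called are not given here, and the causes of the other changes were not tested. Treatment and day were terms of each fit, so differences were taken within treatment or day. A further block by replicate number could not be fitted, since every combination had 1 array.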
